A study of Homo sapiens with 8 samples.

Results

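The genes described here are 38 genes of homologous recombination and of the Fanconi anemia pathway, without BRCA1 and BRCA2, taken by symbol from a table of 21077 genes, in which all 38 were found. They cover the recombination paralogs and genes of strand exchange (9 genes), the MRN complex (3), replication protein A (3), the processing of joint molecules (5), checkpoint kinases (5), the Fanconi core complex with its ubiquitin transfer enzymes (9), the FANCD2-FANCI complex (2) and crosslink nucleases (2). The expression of these genes was compared between Hs578T cells kept for 48 hours in 25 mM glucose (high glucose, 4 libraries) and in 5 mM glucose (low glucose, 4 libraries). Hs578T is an established human line of breast cancer cells, negative for the estrogen receptor and mesenchymal in character. By the general culture methods of the study, which list Hs578T, cells were first conditioned in low glucose and both conditions were without serum. Its RNA-Seq methods do not name cultured Hs578T cells, so the culture of these libraries is not described separately. The cells are a single line, and nothing in the labels says that the 4 libraries of a group came from separate cultures, so the p-values below measure the spread between these libraries, which may be technical. Values are CPM (counts of a gene relative to the size of its library, scaled between libraries by the authors), and fold changes are on the scale of log2(CPM + 1), high minus low glucose.

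Homologous recombination repairs a broken chromosome by copying an intact sister. The MRN complex recognizes and trims the broken end, replication protein A coats the single strand that is exposed, and BRCA2 and the recombination paralogs help the strand to search for the matching sequence. The joined DNA molecules are then separated, either by dissolution with the BLM helicase and TOP3A or by cutting with nucleases such as MUS81-EME1. The Fanconi anemia pathway acts where the strands are crosslinked: its core complex attaches ubiquitin to FANCD2 and FANCI, and the modified pair recruits nucleases that release the crosslink before recombination completes the repair. ATM and ATR, the apical kinases of the DNA damage response, signal through CHEK2 and CHEK1. Inherited loss of Fanconi genes causes bone marrow failure and cancer predisposition, and tumors with defective recombination are sensitive to crosslinking agents and to PARP inhibitors.

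Of the 38 genes, 20 rose and 10 fell in high glucose at an adjusted p under 0.05 (limma, Benjamini-Hochberg), and 8 did not pass. The glucose conditions differed over most of the transcriptome: 72.9% of the 15570 genes tested passed, 35.7% as higher and 37.2% as lower, so a share of 78.9% among these genes was close to the background. The median log2 fold change was 0.30 over the 38 genes and 0.00 over all genes tested. In 29 of the 38 genes the high-glucose libraries did not overlap with the low-glucose libraries, which held for 66.7% of all genes tested. The changes ran from 2.03 (XRCC2) to -1.66 (FANCE), and 13 genes were called with an absolute log2 fold change of at least 0.9, against 21.6% of all genes tested. All 38 genes had at least 0.5 CPM in at least 2 libraries, so none was lost to the filter on low values.

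The libraries held an estimated 10244900 to 11956677 counts each, at which 1 count is 0.0867 to 0.118 CPM. Values of all genes summed to 1017015 to 1036274 in high glucose and to 1205567 to 1229021 in low glucose. When each library was set to the same total instead, the median over all genes moved to 0.20, and 23 of the 38 genes were then called higher and 8 lower. The share of signal from mitochondrial genes was 1.67% to 1.95% in high glucose and 0.969% to 1.06% in low glucose, and 17648 to 17828 and 16805 to 16935 genes were above 0, so both separated the groups, and their part in the results was not tested. All 6 mesenchymal markers of the line were detected and called lower in high glucose. FN1 had the highest level, at 24880 ± 472 CPM in high glucose and 42759 ± 1636 CPM in low glucose (SD, n = 4 each). TWIST1 had the lowest, at 11.4 ± 0.911 and 16.9 ± 1.55 CPM. The log2 fold changes ran from -1.17 for VIM (3733 ± 139.8 and 8420 ± 132 CPM) to -0.15 for SPARC. Of 8 luminal epithelial markers, EPCAM was at 0, KRT19, ESR1, PGR and CDH1 averaged under 1 CPM in both groups, GATA3 was at 20.2 ± 1.49 CPM in high and 21.05 ± 2.15 CPM in low glucose, and KRT8 (17.3 ± 1.93 and 49.5 ± 2.24 CPM) and KRT18 (104 ± 6.40 and 232 ± 10.1 CPM) were expressed and lower in high glucose. Of the leukocyte and endothelial markers LYZ and CDH5 were at 0 in all libraries. PECAM1 (5.80 ± 0.603 and 2.05 ± 0.334 CPM) was called higher in high glucose, and CD14 (0.951 ± 0.411 and 0.510 ± 0.225 CPM) did not pass. PTPRC was at 0.714 ± 0.286 and 0.0835 ± 0.106 CPM, and VWF at 1.52 ± 0.219 and 0.220 ± 0.155 CPM. Both reached 0.5 CPM in high glucose alone, so they passed the filter through that group and no call is given. The lists of 3 leukocyte and 3 endothelial markers in the table summed to 1.30 to 1.91 CPM and 6.21 to 7.80 CPM in high glucose, against 0.217 to 0.886 CPM and 1.95 to 2.77 CPM in low glucose, and their part in the results was not tested.

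Many repair genes are known to be transcribed more in cells that enter S phase, so the letters upstream of several genes are shown first. These are the genes with the largest rises and falls, and FANCD2, which was added by name. RAD51AP1 (log2 fold change 1.45), FANCM (1.27) and FANCI (1.21) rose more than FANCD2 (1.16) and are not shown. The stretches below run from 130 bases before to 30 bases after the start of the gene, 5′ to 3′ on the strand of the gene, from RefSeq on GRCh38.p14, with the start as its promoter entry gives it (for FANCL and MUS81 this lies inside the outermost bounds of the gene). They belong to the 3 genes with the largest rises (XRCC2 at chr7:152676112-152676271, FANCL at chr2:58241296-58241455 and UBE2T at chr1:202341907-202342066, all on the minus strand), to FANCD2, the substrate of the core complex (chr3:10026307-10026466, plus strand), and to the 2 genes with the largest falls (FANCE at chr6:35452208-35452367 and MUS81 at chr11:65860303-65860462, both on the plus strand). Capitals mark a match on either strand to an E2F word (TTTGGCGC, TTTCCCGC, TTTGCCGC or TTTCGCGC), a CHR word (TTTGAA or TTCGAA) or CCAAT, the sequences bound by E2F factors at S phase genes, by cell cycle repressor complexes at later genes and by NF-Y. No word of one kind contains a word of another.
XRCC2: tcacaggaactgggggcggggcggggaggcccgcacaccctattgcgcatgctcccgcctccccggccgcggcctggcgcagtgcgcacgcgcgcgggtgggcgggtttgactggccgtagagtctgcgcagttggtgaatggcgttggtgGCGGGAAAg
FANCL: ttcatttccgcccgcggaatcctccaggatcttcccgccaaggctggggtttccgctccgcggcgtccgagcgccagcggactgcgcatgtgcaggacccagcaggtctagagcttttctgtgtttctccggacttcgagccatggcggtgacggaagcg
UBE2T: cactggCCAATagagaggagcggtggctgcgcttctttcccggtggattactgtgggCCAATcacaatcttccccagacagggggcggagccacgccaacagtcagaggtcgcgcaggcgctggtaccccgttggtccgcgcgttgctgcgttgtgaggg
FANCD2: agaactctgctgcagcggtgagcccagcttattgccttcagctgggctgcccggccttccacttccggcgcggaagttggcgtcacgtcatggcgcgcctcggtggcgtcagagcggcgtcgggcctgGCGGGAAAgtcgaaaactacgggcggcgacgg
FANCE: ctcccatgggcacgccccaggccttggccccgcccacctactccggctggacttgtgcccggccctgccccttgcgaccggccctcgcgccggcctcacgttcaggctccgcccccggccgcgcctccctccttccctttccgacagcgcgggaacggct
MUS81: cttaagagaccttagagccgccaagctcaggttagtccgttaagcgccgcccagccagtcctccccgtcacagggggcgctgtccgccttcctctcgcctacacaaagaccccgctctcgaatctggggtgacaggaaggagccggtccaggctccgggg

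The XRCC2 stretch held an E2F word past the start and the FANCD2 stretch held the same word across it. The UBE2T stretch held CCAAT at 2 places, and the stretches of FANCL, FANCE and MUS81 held none of these words. Over the longer window from 250 bases before to 50 bases after the start, 33 of the 38 genes had an entry in the promoter table. E2F words occurred in 3 of 18 genes that rose (XRCC2, FANCA and FANCD2), in 0 of 8 that fell and in 1 of 7 that did not pass (FANCC), against 3.33% of 27305 promoters of the table and 12 of 23 promoters of a list of proliferation and S phase genes. In a wider list of genes of the same pathways, described below, 7 of 45 promoters held an E2F word. CHR words occurred in 2 of 18, 0 of 8 and 1 of 7 genes of the same groups and in 16.6% of all promoters. CCAAT was found in 10 of 18, 3 of 8 and 2 of 7 and in 35.7% of all promoters. A match is a string of letters and not a bound site, and a gene without a match can be controlled by the same factors.

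**Figure D1:**
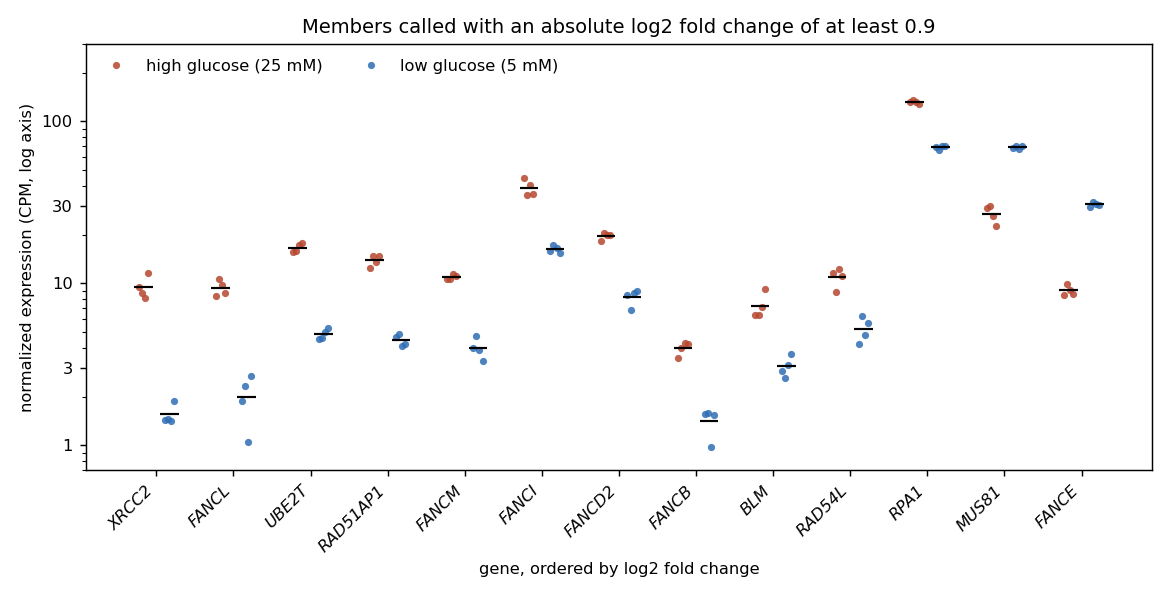
Expression (CPM, log axis) of the 13 genes called with an absolute log2 fold change of at least 0.9, with 1 point per library, high glucose left of low glucose, and the mean of 4 libraries as a line. XRCC2 shows the widest separation upward (8.11 to 11.6 CPM in high and 1.41 to 1.89 CPM in low glucose) and FANCE the widest downward (8.49 to 9.92 and 29.7 to 31.8 CPM), and in none of the 13 genes do the groups overlap.

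Among the recombination paralogs, which form the BCDX2 complex (RAD51B, RAD51C, RAD51D and XRCC2) and the CX3 complex (RAD51C and XRCC3), XRCC2 alone was called. XRCC2 (ENSG00000196584.3, chromosome 7, 152644776 to 152676141 on GRCh38.p14) had 9.53, 8.72, 8.11 and 11.6 CPM in high glucose, against 1.44, 1.46, 1.41 and 1.89 CPM in low glucose. The groups did not overlap, and the mean was 6.13-fold higher in high glucose (log2 fold change 2.03 ± 0.14 SE, adjusted p = 2.37e-09). RAD51D, its direct partner in the complex, had 15.3, 14.6, 12.6 and 15.8 CPM in high glucose, against 15.3, 15.6, 15.7 and 16.6 CPM in low glucose (log2 fold change -0.12, 95% interval -0.31 to 0.07, adjusted p = 0.254). RAD51C had 6.07, 5.01, 4.01 and 4.503 CPM in high and 4.87, 5.51, 6.83 and 5.66 CPM in low glucose (-0.19, interval -0.49 to 0.11). The ranges of both genes overlapped between the groups. RAD51B was at 3.03, 3.11, 3.25 and 2.34 CPM in high and at 4.21, 4.16, 2.28 and 1.89 CPM in low glucose, where the 4 libraries spread widely (-0.03, interval -0.44 to 0.38). XRCC3 had 4.77, 4.56, 4.89 and 3.94 CPM in high and 4.76, 4.61, 5.07 and 3.30 CPM in low glucose (0.04, interval -0.26 to 0.33). These 4 paralogs were not called in any setting tried, and the intervals leave room for changes of up to 0.49 on the log2 scale. With equal library totals the values of RAD51B, RAD51C and RAD51D were above 0 (0.15, 0.01 and 0.11), and with quantile normalization that of XRCC3 was below 0 (-0.09).

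The log2 ratio of XRCC2 to RAD51D averaged -0.57 ± 0.12 in high glucose and -2.72 ± 0.080 in low glucose (SD, n = 4 each), a difference of 2.15. The ratio of RAD51B to RAD51C overlapped between the groups, and so did that of RAD51C to XRCC3 (differences 0.16 and -0.23).

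The genes of strand exchange moved in both directions. RAD51AP1, which stimulates the pairing of strands (ENSG00000111247.14, chromosome 12, 4538890 to 4560047), had 12.4, 14.8, 13.6 and 14.8 CPM in high glucose, against 4.65, 4.83, 4.12 and 4.25 CPM in low glucose. It rose 3.11-fold (log2 fold change 1.45 ± 0.11 SE, adjusted p = 7.65e-09), with a gap between the groups wider than either group. RAD54L, a motor protein of strand exchange, had 11.5, 8.87, 12.2 and 11.04 CPM in high and 4.19, 6.29, 4.83 and 5.66 CPM in low glucose (0.94 ± 0.14 SE, adjusted p = 1.32e-05). Its relative RAD54B rose less, to 15.2 ± 1.98 CPM in high glucose against 10.2 ± 1.58 CPM in low glucose (SD, n = 4 each; log2 fold change 0.54, adjusted p = 7.06e-04), and the log2 ratio of RAD54L to RAD54B overlapped between the groups. RAD52, which anneals complementary single strands, fell to 4.92 ± 0.963 CPM in high glucose against 8.72 ± 1.53 CPM in low glucose (-0.72, adjusted p = 4.75e-04). In this group of 9 genes 4 rose, 1 fell and 4 did not pass, so 55.6% were called, against 72.9% of all genes tested.

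The MRN complex, the sensor and nuclease of DNA ends, had subunits that moved in opposite directions. MRE11, its nuclease, had 37.4, 39.6, 39.1 and 44.0 CPM in high glucose, against 23.8, 20.8, 22.2 and 21.7 CPM in low glucose, with no overlap (log2 fold change 0.83 ± 0.069 SE, adjusted p = 2.98e-08). RAD50, the ATPase that tethers the ends, had 107, 104, 115 and 122 CPM in high and 122, 122, 130 and 135 CPM in low glucose. Here the highest library of high glucose lay just below the lowest of low glucose (-0.19 ± 0.053 SE, adjusted p = 0.00548). The RAD50 call was lost with quantile normalization (-0.08, adjusted p = 0.183) and its direction turned with equal library totals (0.06, adjusted p = 0.370), so its direction rests on the scaling. NBN, the subunit that recruits ATM, fell to 102 ± 6.43 CPM in high glucose against 134 ± 4.73 CPM in low glucose (-0.39, adjusted p = 2.97e-06), and the call was kept in every setting. The log2 ratio of MRE11 to RAD50, which a scaling of whole libraries does not move other than through the pseudocount, was -1.46 ± 0.069 in high glucose and -2.47 ± 0.12 in low glucose.

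Replication protein A, a trimer that protects single-stranded DNA, had a member in each class. RPA1, its large DNA-binding subunit (ENSG00000132383.11, chromosome 17, 1830005 to 1900082), had 131, 136, 132 and 128 CPM in high glucose, against 69.3, 66.3, 70.9 and 70.6 CPM in low glucose. The replicates were tight, and the rise was 1.90-fold (log2 fold change 0.92 ± 0.041 SE, adjusted p = 1.99e-11). RPA2, the subunit that ATR and related kinases phosphorylate, had 34.7, 31.7, 33.5 and 36.9 CPM in high and 52.8, 54.5, 46.6 and 51.6 CPM in low glucose (-0.57 ± 0.065 SE, adjusted p = 9.48e-07), again without overlap. RPA3, the small subunit, had 17.3, 14.6, 15.4 and 14.4 CPM in high and 15.8, 12.6, 15.8 and 14.9 CPM in low glucose, and the groups overlapped (0.06, interval -0.15 to 0.27, adjusted p = 0.582). With equal library totals RPA3 was called higher (0.29, adjusted p = 0.0121). The log2 ratio of RPA1 to RPA2 averaged 1.92 ± 0.12 in high glucose and 0.43 ± 0.13 in low glucose, a difference of 1.49.

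Of the 5 genes that process joined DNA molecules, BLM, TOP3A and EME1 rose and TOP3B and MUS81 fell (72.9% of all genes tested were called). BLM, the helicase mutated in Bloom syndrome (ENSG00000197299.12, chromosome 15, 90717346 to 90816166), had 6.33, 6.41, 7.16 and 9.19 CPM in high glucose, against 2.88, 2.59, 3.14 and 3.66 CPM in low glucose (log2 fold change 1.02 ± 0.14 SE, adjusted p = 9.68e-06). TOP3A, the topoisomerase that works with BLM, had 47.2, 41.8, 45.1 and 43.5 CPM in high and 26.01, 29.0, 26.01 and 27.4 CPM in low glucose (0.69 ± 0.063 SE, adjusted p = 7.23e-08). Neither gene overlapped between the groups. TOP3B, a relative that also acts on RNA, had 13.4, 13.6, 16.3 and 13.7 CPM in high and 18.4, 21.0, 18.5 and 20.01 CPM in low glucose (-0.43 ± 0.088 SE, adjusted p = 4.38e-04). That call was lost with equal library totals (-0.20, adjusted p = 0.0581). The log2 ratio of TOP3A to TOP3B was 1.12 higher in high glucose, while that of BLM to TOP3A overlapped between the groups (difference 0.33).

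MUS81, the catalytic subunit of a structure-specific nuclease (ENSG00000172732.12, chromosome 11, 65859674 to 65867653), had 28.9, 29.9, 25.96 and 22.4 CPM in high glucose, against 68.1, 70.8, 67.7 and 70.0 CPM in low glucose. Its mean was 2.58-fold higher in low glucose (log2 fold change -1.34 ± 0.076 SE, adjusted p = 2.79e-10). EFEMP2, a gene that overlaps MUS81 on the chromosome, had a lower mean as well, at 59.0 ± 5.999 CPM in high glucose and 131 ± 1.80 CPM in low glucose (SD, n = 4 each). Whether reads of these libraries were assigned by strand is not given in the sources used here, and the part of EFEMP2 in the values of MUS81 was not tested. EME1, a partner of MUS81 in the active nuclease, had 2.50, 3.81, 3.68 and 3.63 CPM in high and 1.60, 2.598, 3.07 and 2.15 CPM in low glucose. The groups overlapped and the call was narrow (0.40 ± 0.17 SE, adjusted p = 0.0409); it was lost without high-glucose replicate 2, 3 or 4, without low-glucose replicate 1 or 4, and in 4 other settings. The log2 ratio of MUS81 to EME1 was 2.66 ± 0.32 in high glucose and 4.41 ± 0.28 in low glucose, the larger of the 2 falls among the ratios that did not overlap.

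Of the 5 checkpoint genes of the ATR and ATM arms 3 rose, 1 fell and 1 did not pass. With 80% called, this group was near the 72.9% of all genes tested (35.7% higher and 37.2% lower). ATM, which responds to double-strand breaks, was at 112 ± 7.98 CPM in high glucose and 67.7 ± 1.86 CPM in low glucose (log2 fold change 0.71, adjusted p = 5.10e-09). ATR, which responds to single-stranded DNA at stalled forks, was at 62.3 ± 1.60 and 38.8 ± 0.597 CPM (0.67, adjusted p = 5.07e-09). The ratio of ATM to ATR overlapped between the groups, with a difference of 0.04. ATRIP, the subunit through which ATR binds replication protein A, had 11.5, 9.81, 8.13 and 9.92 CPM in high and 9.42, 10.6, 10.4 and 9.53 CPM in low glucose (-0.03, interval -0.26 to 0.21, adjusted p = 0.837), with overlapping groups. The log2 ratio of ATR to ATRIP was therefore 0.70 higher in high glucose. Among the effector kinases, CHEK1 had 39.6, 40.3, 47.1 and 44.1 CPM in high and 34.5, 28.1, 29.5 and 32.9 CPM in low glucose (0.44 ± 0.077 SE, adjusted p = 8.89e-05). CHEK2 had 10.1, 10.4, 9.08 and 11.98 CPM in high and 21.4, 16.1, 18.2 and 16.0 CPM in low glucose (-0.73 ± 0.11 SE, adjusted p = 2.35e-05). So the kinase downstream of ATR rose and that downstream of ATM fell, both without overlap. CHEK2 has 6 annotated pseudogenes with which its reads can be shared.

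**Figure D2:**
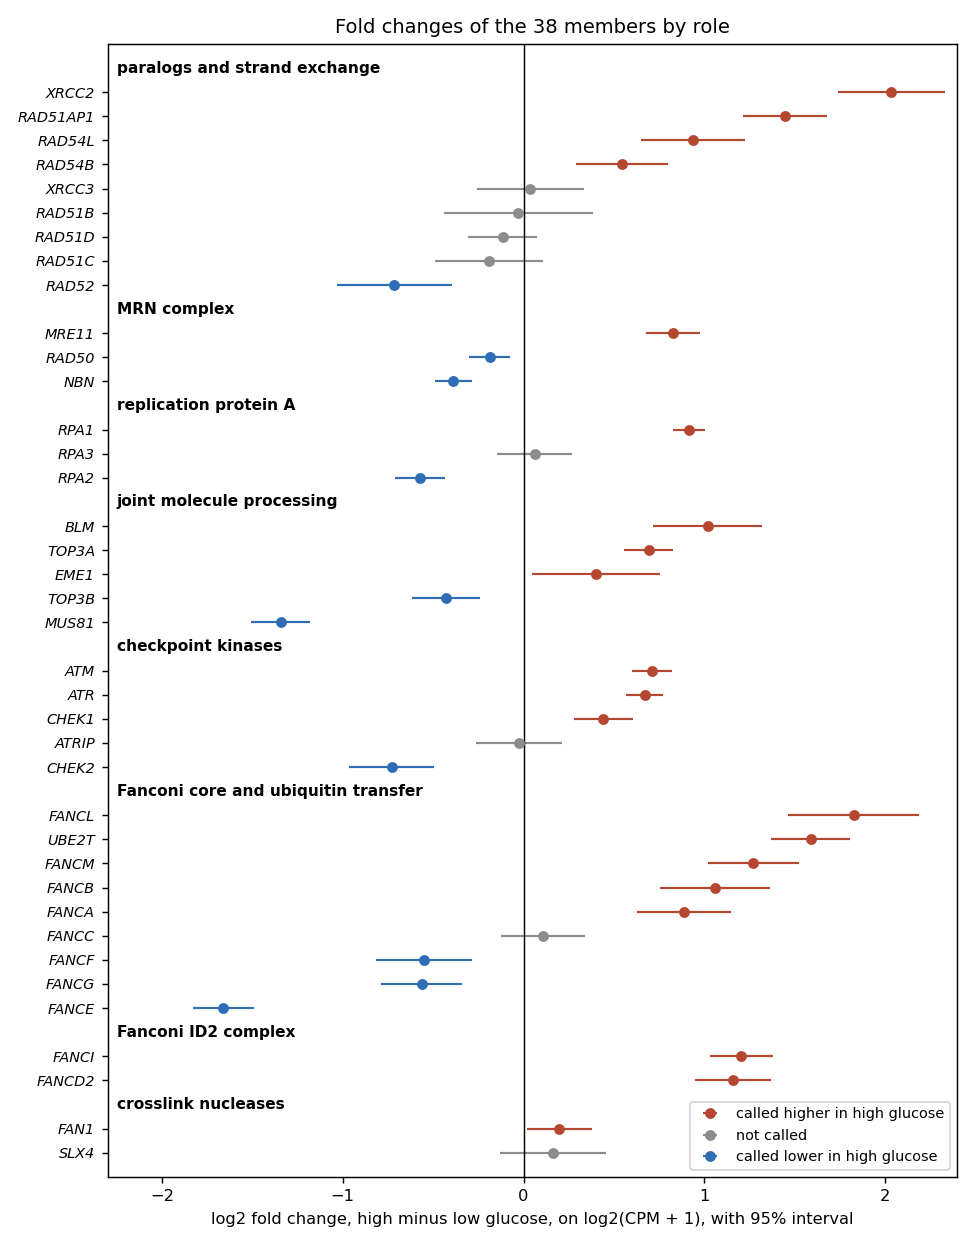
Log2 fold change (high minus low glucose, log2(CPM + 1)) of the 38 genes with 95% intervals, grouped by role and marked by call. The ID2 pair lies at 1.16 and 1.21, whereas every group of 3 or more genes holds members on both sides of 0.

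The Fanconi core complex had the largest rise after XRCC2 and the largest fall of all 38 genes. FANCL, the ubiquitin ligase of the complex (ENSG00000115392.11, chromosome 2, 58159243 to 58241380), had 8.30, 10.6, 9.82 and 8.70 CPM in high glucose, against 1.86, 2.32, 1.04 and 2.67 CPM in low glucose. It was 4.73-fold higher in high glucose (log2 fold change 1.83 ± 0.17 SE, adjusted p = 9.99e-08). VRK2, which overlaps FANCL, had a lower mean, at 30.2 ± 2.999 CPM in high and 63.5 ± 4.22 CPM in low glucose. UBE2T, the conjugating enzyme that hands ubiquitin to FANCL (ENSG00000077152.10, chromosome 1, 202331657 to 202341936), had 15.6, 15.8, 17.2 and 17.8 CPM in high and 4.54, 4.61, 4.98 and 5.31 CPM in low glucose (1.59 ± 0.10 SE, adjusted p = 1.15e-09). The enzyme pair that performs the modification thus rose together, and the UBE2T to FANCL ratio overlapped between the groups (difference -0.24). FANCM, the translocase that anchors the complex to DNA (ENSG00000187790.11, chromosome 14, 45135930 to 45200890), had 10.7, 10.6, 11.4 and 11.2 CPM in high and 3.98, 4.72, 3.90 and 3.30 CPM in low glucose (1.27 ± 0.12 SE, adjusted p = 9.17e-08). FANCB, which holds FANCL in its subcomplex, had 3.47, 4.01, 4.30 and 4.23 CPM in high and 1.55, 1.57, 0.975 and 1.53 CPM in low glucose (1.06 ± 0.14 SE, adjusted p = 6.41e-06). FANCB is expressed at a low level, and its lowest library in low glucose corresponds to an estimated 9 counts.

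FANCE, the bridge between the core complex and FANCD2 (ENSG00000112039.4, chromosome 6, 35452338 to 35467102), moved against these genes. It had 8.49, 9.92, 9.07 and 8.65 CPM in high glucose, against 29.7, 31.8, 30.7 and 30.5 CPM in low glucose. Each group was narrow, and the mean was 3.40-fold higher in low glucose (log2 fold change -1.66 ± 0.080 SE, adjusted p = 4.05e-11). FANCF, the adaptor of the same FANCC-FANCE-FANCF subcomplex, had 6.24, 7.30, 6.39 and 6.12 CPM in high and 9.52, 8.54, 12.6 and 9.67 CPM in low glucose (-0.55 ± 0.12 SE, adjusted p = 9.24e-04). FANCC had 9.71, 9.12, 8.49 and 7.93 CPM in high and 7.53, 9.22, 7.69 and 8.02 CPM in low glucose (0.11, interval -0.13 to 0.34, adjusted p = 0.391). The FANCC groups overlapped, and with equal library totals FANCC was called higher (0.33, adjusted p = 0.0137). In the subcomplex of FANCA and FANCG, FANCA, the gene most often mutated in the disease, had 16.0, 18.3, 14.2 and 13.0 CPM in high and 7.67, 8.93, 8.23 and 6.49 CPM in low glucose (0.89 ± 0.12 SE, adjusted p = 8.08e-06). FANCG, its scaffold, had 9.10, 9.62, 10.6 and 9.19 CPM in high and 17.7, 14.2, 13.8 and 13.4 CPM in low glucose (-0.56 ± 0.10 SE, adjusted p = 1.78e-04). Both were free of overlap, so within each of these subcomplexes subunits were found on different sides of the threshold or of 0. Of the 9 genes of the core and its ubiquitin transfer 5 rose, 3 fell and 1 did not pass. The share called was 88.9%, against 72.9% of all genes tested (35.7% higher and 37.2% lower).

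The target of the core complex rose as a pair. FANCD2 (ENSG00000144554.10, chromosome 3, 10026437 to 10101932) had 18.2, 20.3, 19.8 and 19.9 CPM in high glucose, against 8.41, 6.86, 8.67 and 8.96 CPM in low glucose (log2 fold change 1.16 ± 0.098 SE, adjusted p = 3.28e-08). FANCI (ENSG00000140525.17, chromosome 15, 89243979 to 89317259) had 44.5, 35.3, 40.7 and 35.5 CPM in high and 15.9, 17.2, 16.6 and 15.5 CPM in low glucose (1.21 ± 0.082 SE, adjusted p = 2.43e-09). Their log2 ratio was -0.95 ± 0.22 in high glucose and -0.91 ± 0.21 in low glucose, and the groups overlapped. The ratio of FANCD2 to FANCE, by contrast, was 1.04 ± 0.062 in high glucose and -1.79 ± 0.19 in low glucose, a difference of 2.82 and the largest of the 20 ratios computed. Downstream of the pair, the nuclease FAN1 had 15.1, 16.2, 15.6 and 14.7 CPM in high and 13.1, 12.4, 14.0 and 13.8 CPM in low glucose. Its groups did not overlap, but the call was narrow (0.20 ± 0.084 SE, adjusted p = 0.0458) and was lost without each of the 4 high-glucose libraries, without low-glucose replicate 1, 2 or 4, without the filter on low values and in the fit with a replicate block (adjusted p = 0.0664). SLX4, the scaffold on which crosslink nucleases assemble, had 9.27, 9.42, 8.97 and 9.56 CPM in high and 6.65, 11.2, 7.04 and 8.49 CPM in low glucose. Its low-glucose libraries enclosed all high-glucose libraries (0.16, interval -0.13 to 0.46, adjusted p = 0.290). SLX4 was called higher with equal library totals (0.38, adjusted p = 0.0194) and without low-glucose replicate 2 (0.30, adjusted p = 0.0315).

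The ratio of 2 genes within a library does not change when the library is rescaled, except through the pseudocount. It was therefore described for 20 pairs of members. Some pairs are subunits of a complex or an enzyme and its partner, and others are related enzymes, such as TOP3A and TOP3B. In 13 pairs the groups did not overlap, 11 with a higher and 2 with a lower ratio in high glucose, and in 7 they overlapped. Values of single genes, which are not ratios, did not overlap in 66.7% of all genes tested. Over all genes tested, 35.7% were called higher and 37.2% lower, so opposite calls of 2 genes are frequent in these data. In 8 pairs the 2 genes were called in opposite directions. These were CHEK1 and CHEK2, FANCA and FANCG, FANCD2 and FANCE, FANCM and FANCF, MRE11 and RAD50, EME1 and MUS81, RPA1 and RPA2, and TOP3A and TOP3B. Unlike the ratios, these calls depend on the scaling of whole libraries: with equal library totals RAD50 turned to 0.06 and TOP3B was not called. EME1 lost its call in 9 of 18 settings. The ratios depend on the pseudocount, and 11 of the 20 moved by more than their spread with 5 CPM. The pairs were chosen with the direction of some genes known, and no test is attached to them.

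**Figure D3:**
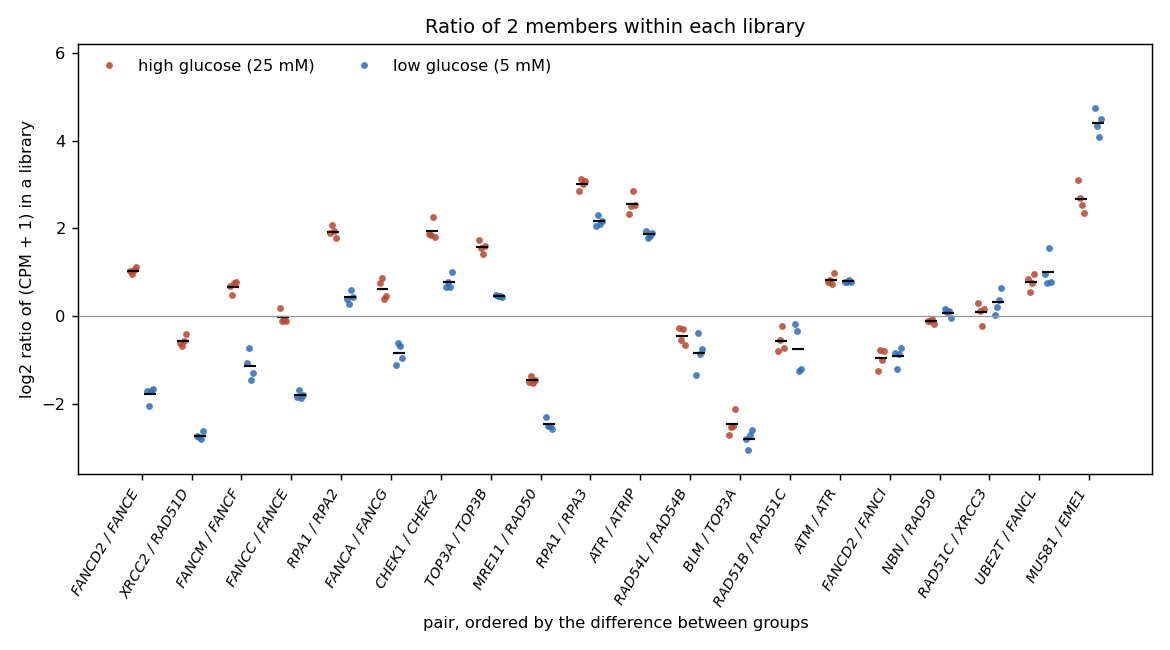
Log2 ratio of CPM + 1 between the members of 20 pairs, with 1 point per library and high glucose left of low glucose. FANCD2 over FANCE (difference 2.82) and XRCC2 over RAD51D (2.15) separate most, whereas FANCD2 over FANCI (-0.04) and ATM over ATR (0.04) overlap.

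A wider list held 49 genes of the same pathways, of which 48 were in the table and tested. Of these 18 rose, 22 fell and 8 did not pass, with a median log2 fold change of -0.04. That made 83.3% called, against 72.9% of all genes tested (35.7% higher and 37.2% lower). Among the genes with an absolute change of at least 1, the fork protection factor CLSPN (2.79), the resection nuclease EXO1 (2.15), BRCA1 (1.41), its helicase partner BRIP1 (1.40), the ubiquitin ligase RFWD3 (1.36), EME2, an alternative partner of MUS81 (1.30), the resolvase GEN1 (1.19), RMI2 of the BLM complex (1.16) and the ATR activator TOPBP1 (1.01) rose. BRCA2, a mediator of recombination, did not pass (0.10, adjusted p = 0.373). UIMC1 of the BRCA1-A complex (-1.43), FAAP100, the third subunit beside FANCB and FANCL (-1.31), and HUS1 (-1.31) and RAD9A (-1.06) of the 9-1-1 checkpoint clamp fell. CLSPN was at 31.1 ± 3.77 CPM in high glucose and 3.66 ± 0.580 CPM in low glucose, and FAAP100 at 9.91 ± 1.55 and 25.9 ± 3.04 CPM (SD, n = 4 each). FAAP100 thus moved against both other subunits of its module, as FANCG did against FANCA and RMI2 moved with BLM and TOP3A.

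Most genes of a list of proliferation and S phase markers were called higher in high glucose. Of these 28 genes 21 rose, 2 fell and 5 did not pass, with a median log2 fold change of 1.17. Among all genes tested, 35.7% were called higher and 37.2% lower. The summed level of the 28 genes was 1806 to 1852 CPM in high glucose and 978 to 1019 CPM in low glucose. MKI67 was at 101 ± 6.78 CPM in high glucose and 18.9 ± 0.474 CPM in low glucose, and PCNA at 95.1 ± 3.33 and 30.7 ± 1.21 CPM. MCM5 (-0.51) and CDT1 (-0.50) fell, and CDC6 (-0.02, adjusted p = 0.817) and MCM7 (-0.05, adjusted p = 0.220) did not pass. The part of cell cycle position in the values of the 38 genes was not tested, and in bulk RNA fewer cells that express a gene cannot be told apart from less RNA per cell. The summed level of the 38 genes was 1000.0 to 1050 CPM in high glucose and 886 to 900.2 CPM in low glucose.

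**Figure D4:**
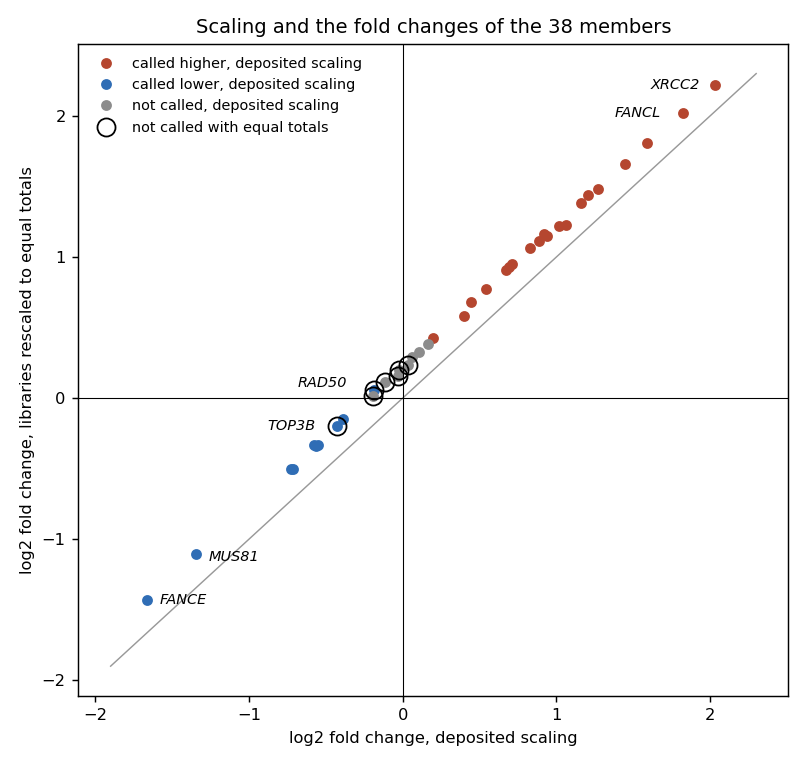
Log2 fold change of each of the 38 genes (high minus low glucose) with the deposited scaling on the x axis and with equal library totals on the y axis, with the call of the deposited scaling in color and a ring where the gene was not called with equal totals. Equal totals place the genes above the diagonal, with a median of 0.50 in place of 0.30, and bring RAD50 to 0.06.

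In 26 of the 30 called genes the call and its direction were kept in all 18 settings tried, and the exceptions were EME1, FAN1, RAD50 and TOP3B. The size of several changes depended on the setting. Equal library totals gave smaller falls for NBN (-0.15), RPA2 (-0.33), FANCF (-0.33) and FANCG (-0.34) and larger rises for CHEK1 (0.68) and FAN1 (0.43). A pseudocount of 5 CPM, which shrinks changes of genes at low levels, gave XRCC2 1.14, FANCL 1.04, FANCM 0.83, BLM 0.60, FANCB 0.49, EME1 0.19 and RAD52 -0.47, all still called. Replicates of these genes agreed to a median coefficient of variation of 8.68% in high glucose and 9.91% in low glucose, with RAD51B in low glucose the most variable (39.1%). Within RefSeq, 18 of the 38 genes overlap another protein-coding gene and 8 have named pseudogenes, 22 in all when every gene with either is counted, and values of these genes can hold reads of the other. Besides the pairs given above, FANCA overlaps ZNF276, which was at 12.4 ± 0.363 CPM in high glucose and 26.2 ± 2.55 CPM in low glucose, FANCI overlaps POLG (38.4 ± 2.85 and 36.3 ± 3.41 CPM), and RAD54L overlaps LRRC41 (91.7 ± 11.6 and 137 ± 7.57 CPM). ANKRD49, which overlaps MRE11, was at 15.6 ± 0.712 CPM in high glucose and 6.58 ± 0.650 CPM in low glucose, and FSBP, which overlaps RAD54B, at 5.08 ± 1.64 and 2.95 ± 1.48 CPM, so both had higher means where their partners rose, whereas ZNF276 and LRRC41 had lower means where FANCA and RAD54L rose. LRRC59, which overlaps EME1, was at 257 ± 8.23 CPM in high glucose and 245 ± 3.87 CPM in low glucose. In the same order, ERC1, which overlaps RAD52, was at 95.4 ± 3.16 and 64.5 ± 2.78 CPM. KLC1, which overlaps XRCC3, was at 83.0 ± 2.68 and 72.7 ± 6.18 CPM. These neighbors were far above EME1, RAD52 and XRCC3 in level. The part of shared reads was not tested.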

How the data were processed

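RNA-Seq profiles of 8 libraries (4 high glucose, 4 low glucose) were analysed from 1 table of 21077 genes. The authors deposited normalized signal per gene, aligned to hg38, which was read as CPM with TMM factors because edgeR is named in the submitters' processing notes and the study's methods describe such values. The study's methods describe stranded TruSeq libraries aligned with TopHat to an older human assembly for human tumors. For the cell lines they name another sequencer and no alignment, so the aligner, the counter and the strand setting of these libraries are taken as not given in the sources used here. Values were multiples of 0.01 count, so no count model was used, and limits from counts cover counting error only. There were 0 columns of no sample. Library correlations were 0.992 to 0.995 within and 0.941 to 0.951 between groups, and no library repeated another.

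A gene was tested if 2 or more libraries had 0.5 CPM or more (15570 genes). log2(CPM + 1) was fitted in limma 3.58.1 (R 4.3.3) with a trended prior and no covariate, and genes with a Benjamini-Hochberg adjusted p under 0.05 were called; intervals are 95%. The fit was tested on simulated data with an assumed dispersion of 0.005. It recovered 32% of 1.25-fold, 90% of 1.5-fold and 100% of 2-fold changes and called 12 unchanged genes. Small changes can therefore be missed. The members, lists and pairs were chosen with earlier results of these data known. All members were named. Values per library were given for those called with an absolute log2 fold change of at least 0.9. They were also given for paired members called in opposite directions and for members that changed with the scaling. Genes of the wider list were named if called with an absolute change of at least 1, and other genes were chosen after their values were seen. Alternatives covered the pseudocount, filter, scaling, variance prior, voom weights, replicate block and each library left out. Positions and promoters are from RefSeq (GRCh38.p14). A gene of the wider list is not reported here.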

Additional observations from a re-analysis of the deposited data

Results flagged for a closer look

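In 5 of 76 groups of 4 libraries a single library lay apart from the other 3 by Dixon's criterion, and chance gives about 1 in 20. XRCC2 in low glucose was highest in replicate 4, at 1.89 CPM against 1.41 to 1.46 CPM in the others. FANCB in low glucose was lowest in replicate 3, at 0.975 CPM against 1.53 to 1.57 CPM. In high glucose, TOP3B was highest in replicate 3 (16.3 CPM against 13.4 to 13.7 CPM), EME1 was lowest in replicate 1 (2.50 CPM against 3.63 to 3.81 CPM) and ATM was highest in replicate 4 (123 CPM against 107 to 109 CPM). Without the library concerned XRCC2, FANCB, TOP3B, ATM and EME1 were still called in the same direction.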

How the results depend on the processing

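Over 18 settings the counts of members called stayed at 18 to 23 higher and 8 to 10 lower, and 26 of 30 called members kept their call in all of them. The median log2 fold change of the members (0.30) was 0.17 with a pseudocount of 5 CPM, 0.50 with equal library totals, 0.23 with quantile normalization and 0.24 to 0.35 with 1 library left out. Equal totals moved the share of calls that were higher to 62.8%, against 48.9%, and gave RAD50 0.056, RAD51B 0.15, RAD51C 0.013, RAD51D 0.11 and ATRIP 0.20. With median-of-ratios factors RAD51B was at 0.00016 and ATRIP at 0.0085, and with quantile normalization XRCC3 was at -0.091. With 1 library left out, RAD51B ranged over -0.18 to 0.0996, ATRIP over -0.098 to 0.053, RPA3 over -0.0087 to 0.094 and XRCC3 over -0.071 to 0.095, none of them called. The causes were not tested. Of the 20 ratios, 11 moved by more than their spread with a pseudocount of 5 CPM and 2 with 0.1 CPM. The differences of BLM over TOP3A, UBE2T over FANCL, FANCD2 over FANCI, ATM over ATR and RAD51B over RAD51C, all with overlapping groups, changed sign in at least 1 setting, and the other ratios did not. The replicate numbers did not pair the libraries (correlation of deviations -0.03 to 0.11 between equal numbers), and the replicate block gave 11494 called genes, against 11350, and lost FAN1 alone among the members (adjusted p = 0.0664). In its lowest library FANCB rests on about 9 counts, FANCL on 9.64, XRCC2 on 13, EME1 on 14.5 and RAD51B on 16, so small changes at these levels were not detectable at this depth. One cell line and a single time and dose were measured.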
